A study of Mus musculus with 12 samples.

Results

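The MAP kinase phosphatases followed here were 10 genes of the 19549 features counted in every library: Dusp1, Dusp2, Dusp3, Dusp4, Dusp5, Dusp6, Dusp7, Dusp10, Dusp16 and Dusp22, whose products are dual-specificity phosphatases that act on MAP kinases. They were chosen by name, and all 10 were found as features of their own, none joined to a neighbouring gene. The cells were bone marrow-derived macrophages (BMDMs), that is, bone marrow progenitors of naive female FVB mice grown into macrophages in culture. They were polarized for 4 h with IFNG (200 units/mL), a cytokine of T and NK cells that drives antimicrobial activation, or with IL4 (40 ng/mL), which drives alternative activation. From each polarization came polysome-associated mRNA, pooled from sucrose-gradient fractions in which messages carried more than 3 ribosomes, and total mRNA, taken from about 10% of the cells. This gave 4 groups of 3 libraries: IFNG polysome, IFNG total, IL4 polysome and IL4 total. All groups share strain, sex and culture, and no group without cytokine was analysed here, so each difference between the cytokines is a difference between 2 treated states. The libraries were made with SmartSeq2, a full-length cDNA method for small RNA inputs.

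MAP kinases (ERK, p38 and JNK) carry signals from receptors to transcription, and are switched on by phosphorylation of a threonine and a tyrosine in the activation loop. MAP kinase phosphatases remove both phosphates and so set how strong and how long the signal is. Several are themselves transcribed in response to MAP kinase activity, which makes them negative feedback regulators. In macrophages, DUSP1 is known to restrain p38 and JNK and with them cytokine production after exposure to bacterial products. The family is commonly sorted by place and substrate: inducible nuclear enzymes (DUSP1, DUSP2, DUSP4, DUSP5), cytoplasmic ERK-selective enzymes (DUSP6, DUSP7), p38- and JNK-selective enzymes (DUSP10, DUSP16) and small atypical enzymes that lack the kinase-binding domain (DUSP3, DUSP22).

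Library totals were 2563955 to 22014162 counts, with the shallower libraries in the polysome groups. Levels below are counts per 1000000 (CPM) on library sizes scaled with the TMM method, so they are relative to the other mRNA of the same fraction. A single feature, Lars2, took 1.78 to 29.3% of the counts in the IFNG polysome libraries and 0.341 to 2.00% in IFNG total. It took 5.15 to 18.1% in IL4 polysome and 0.903 to 1.47% in IL4 total. All 8 macrophage markers were counted in every group, with summed levels of 10225 to 16197 CPM in IFNG polysome, 12299 to 24286 CPM in IFNG total, 7538 to 8468 CPM in IL4 polysome and 7832 to 13768 CPM in IL4 total. Of 6 dendritic cell markers, 5 had a count in IFNG polysome (17.6 to 44.7 CPM in sum), 4 in IFNG total (8.43 to 26.9 CPM), 3 in IL4 polysome (0.681 to 1.42 CPM) and 4 in IL4 total (0.552 to 1.67 CPM). Flt3 was at 0 in every library and Clec9a at 0 in the IL4 groups. Of 6 neutrophil markers, 4 had a count in IFNG polysome (3.36 to 8.13 CPM), 6 in IFNG total (10.0 to 32.0 CPM), 4 in IL4 polysome (0.272 to 4.16 CPM) and 4 in IL4 total (1.08 to 4.54 CPM). B cell, T and NK cell and mast cell markers summed to at most 1.38 CPM, with Ms4a1, Pax5, Cd3e, Cd8a, Ncr1, Nkg7, Cpa3 and Ms4a2 at 0. The 5 stromal and endothelial markers summed to 1.48 to 42.0 CPM in IFNG polysome, 1.64 to 11.98 CPM in IFNG total, 10.6 to 13.5 CPM in IL4 polysome and 6.45 to 11.95 CPM in IL4 total. The 4 megakaryocyte and erythroid markers summed to 35.9 to 116 CPM, 336 to 766 CPM, 155 to 328 CPM and 527 to 1104 CPM in those same groups, nearly all of it Pf4. The part of these marker lists in the results below was not tested. For Lars2, a fit with it left out was among the alternatives, and the calls that changed are given below.

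RefSeq's promoter table of GRCm38.p6, the assembly that mm10 stands for, had an entry for 9 of the 10 genes, Dusp4 being the one without. Each entry spans 250 bases before and 50 after the start site. The 5 upstream stretches printed here belong to the members called higher with IFNG (Dusp2 and Dusp10) and to those in which a searched motif was found (Dusp1, Dusp5 and Dusp22). They are written 5′ to 3′ on the strand of the gene, and capitals mark the motif matches. Dusp1 lies at chr17:26508473-26508722 on the minus strand. The others are on the plus strand, Dusp2 at chr2:127335909-127336158, Dusp5 at chr19:53528895-53529144, Dusp10 at chr1:184034131-184034380 and Dusp22 at chr13:30659809-30660058.
Dusp1: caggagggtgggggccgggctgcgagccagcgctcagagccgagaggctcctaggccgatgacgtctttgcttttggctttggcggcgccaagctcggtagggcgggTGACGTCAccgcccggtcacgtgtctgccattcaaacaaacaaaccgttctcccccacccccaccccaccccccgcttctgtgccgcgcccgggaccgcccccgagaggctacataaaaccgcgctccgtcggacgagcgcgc
Dusp2: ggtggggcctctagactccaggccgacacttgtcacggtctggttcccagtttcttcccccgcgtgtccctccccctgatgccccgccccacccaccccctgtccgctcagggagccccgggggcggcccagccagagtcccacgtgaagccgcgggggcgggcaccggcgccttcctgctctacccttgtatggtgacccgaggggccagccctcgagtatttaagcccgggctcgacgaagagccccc
Dusp5: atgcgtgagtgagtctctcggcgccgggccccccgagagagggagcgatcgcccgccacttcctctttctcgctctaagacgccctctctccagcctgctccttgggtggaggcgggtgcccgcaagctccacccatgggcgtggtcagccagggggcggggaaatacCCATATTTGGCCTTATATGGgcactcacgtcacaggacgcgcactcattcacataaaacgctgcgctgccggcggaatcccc
Dusp10: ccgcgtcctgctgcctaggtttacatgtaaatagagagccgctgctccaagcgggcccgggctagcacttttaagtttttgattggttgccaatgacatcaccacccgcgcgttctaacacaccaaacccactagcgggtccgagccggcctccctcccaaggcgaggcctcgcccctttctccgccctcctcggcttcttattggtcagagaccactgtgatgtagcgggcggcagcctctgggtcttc
Dusp22: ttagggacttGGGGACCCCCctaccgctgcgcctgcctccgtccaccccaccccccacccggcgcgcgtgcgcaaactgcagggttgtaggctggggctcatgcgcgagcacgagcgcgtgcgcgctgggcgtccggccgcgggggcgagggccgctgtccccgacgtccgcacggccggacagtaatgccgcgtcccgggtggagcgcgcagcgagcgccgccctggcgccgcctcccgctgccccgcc

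Motifs were searched on both strands of the 300 bases, without overlap between the motifs found. The cAMP response element TGACGTCA was found in Dusp1, starting 143 bases before the start site, and occurs in 1.79% of the 32851 promoters in the table. Dusp5 held 2 CArG boxes, the sites bound by serum response factor, at 82 and 72 bases before the start. A CArG box occurs in 1.629% of promoters. An NF-kB site was found in Dusp22 on the minus strand, 240 bases before the start, against 4.505% of all promoters. The STAT6 site (6.953% of promoters) and the AP-1 site, TGANTCA (7.808%), had no match in these windows of the 9 genes. Such matches describe the letters of the window and show no binding.

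In the fit without a replicate term, IFNG and IL4 cells differed in 3 of the 10 members in each fraction. Dusp2 and Dusp10 were higher with IFNG, and Dusp4 was lower, on polysomes and in total mRNA alike. The count is by edgeR's quasi-likelihood test at an adjusted p (Benjamini-Hochberg over all 10421 features tested) under 0.05. All 10 members passed the filter on low counts. Of all features, 7.08% were called higher with IFNG and 3.93% lower in total mRNA, and 7.54% and 6.58% on polysomes. With the replicate number as a block, 4 members were called higher and 1 lower in total mRNA, and 850 and 584 of all features. Without the block those feature counts were 738 and 410. On polysomes the block gave 2 members higher and 1 lower, as without it. The median log2 fold change of the members was 0.58 in total mRNA, against 0.04 over all features, and 0.73 on polysomes, against -0.06. Library ranges did not overlap for 3 members higher and 2 lower in total mRNA, where 13.4% and 12.3% of all features did so. On polysomes the same held for 5 members higher and 2 lower, against 15.2% and 16.0% of all features. Per the labels, both fractions were taken from the polarized cell population, so they are given side by side and not as independent evidence. With bulk RNA, fewer cells of a type and less RNA per cell cannot be told apart.

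**Figure D1:**
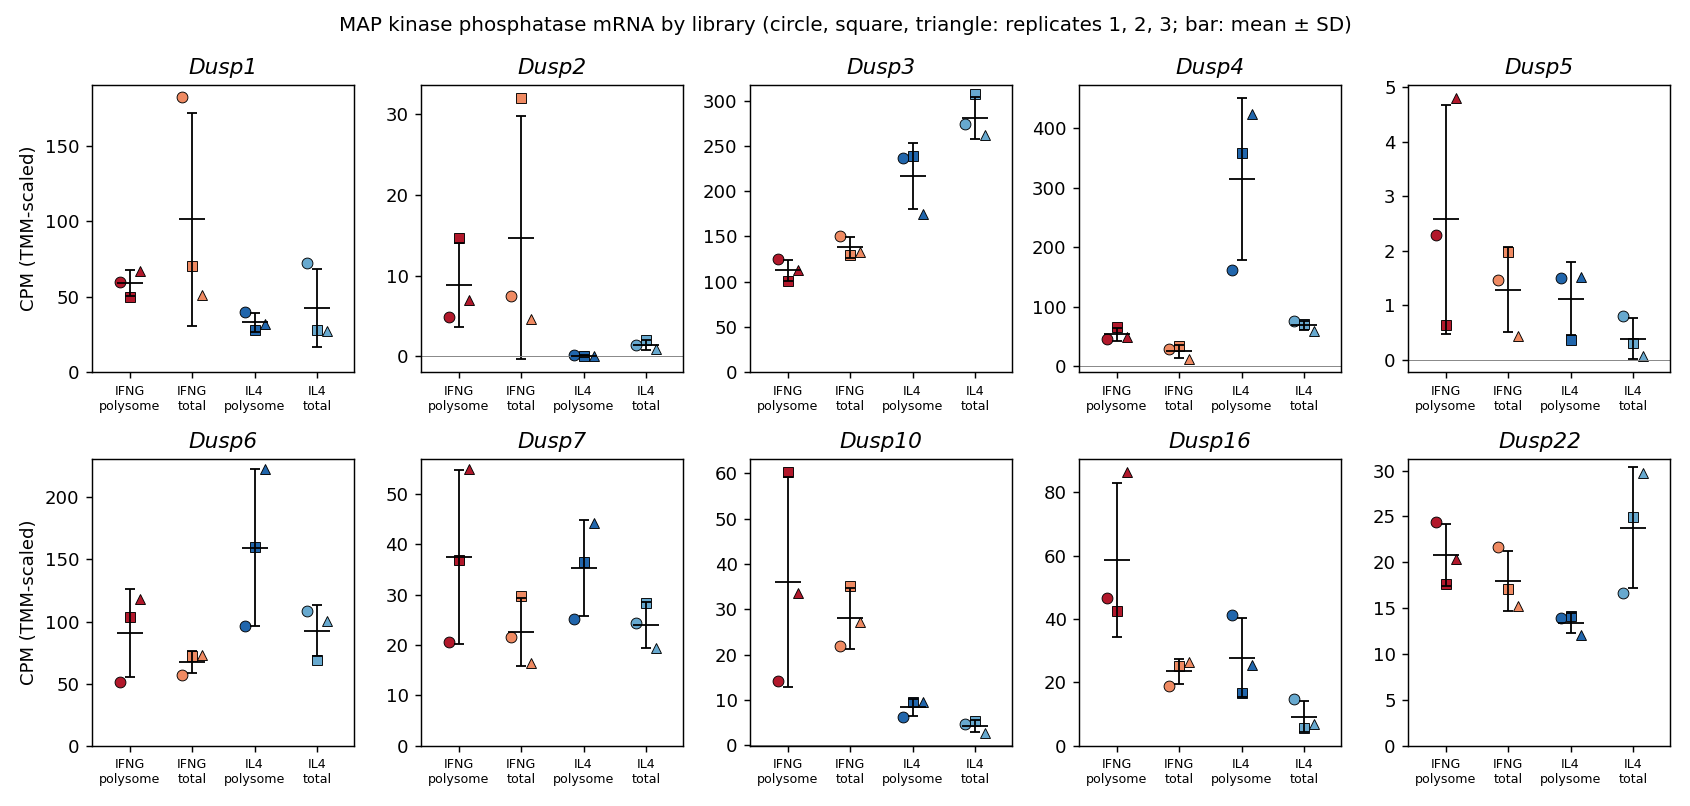
Levels of the 10 phosphatase genes in CPM (a linear scale, set for each gene) in the 4 groups, where points are libraries and bars are mean ± SD of 3 libraries. Dusp2 and Dusp10 sit higher in the IFNG groups, Dusp4 sits highest in the IL4 polysome libraries (161 to 424 CPM), and the Dusp7 libraries of all groups overlap.

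Of the inducible nuclear enzymes, Dusp2 (PAC-1, found mainly in immune cells, acting on ERK and p38) was higher with IFNG in both fractions. It spans chr2:127336159-127338377. In total mRNA it stood at 7.48, 32.0 and 4.66 CPM in IFNG libraries, against 1.38, 2.08 and 0.886 CPM in IL4 libraries. The ranges did not overlap, and IFNG replicate 2 was well above the other two. The log2 fold change was 3.32 (SE 0.70, adjusted p = 0.00233 by edgeR). Without IFNG total replicate 2 it was 1.99 and no longer passed (adjusted p = 0.0821; range over all alternatives 8.06e-06 to 0.0821). On polysomes Dusp2 measured 4.85, 14.7 and 7.02 CPM with IFNG, against 0.136, 0 and 0 CPM with IL4. The IL4 polysome libraries held 1 Dusp2 count in all, against 144 in the IFNG polysome libraries, a ratio of 98.0 with a 95% counting interval of 17.3 to 3898. The difference passed the test (adjusted p = 0.000281 by edgeR) and kept passing under every alternative run.

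Dusp4 (MKP-2, chr8:34807610-34819894), which acts on ERK and JNK, went the other way. In total mRNA its levels were 27.9, 33.8 and 11.7 CPM with IFNG, against 75.1, 70.2 and 59.1 CPM with IL4. All 3 IFNG libraries lay below all 3 IL4 libraries. Its log2 fold change was -1.48 (SE 0.45, edgeR adjusted p = 0.0348). This call was near the threshold: leaving out any 1 library of the 6 other than IFNG total replicate 2 ended it, with adjusted p between 0.0548 and 0.106 (range over all alternatives 0.0113 to 0.106). On polysomes Dusp4 measured 45.1, 66.0 and 48.4 CPM with IFNG, against 161, 358 and 424 CPM with IL4. The groups were again apart, with a log2 fold change of -2.56 (SE 0.47, edgeR adjusted p = 0.000569), and held under every alternative run (adjusted p 9.7e-07 to 0.00472). The log2 fold changes of the fractions were set against each other in the interaction described further on.

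Dusp1 (MKP-1, chr17:26505591-26508472) was not called in either fraction. In total mRNA it measured 182, 70.6 and 50.8 CPM with IFNG, against 72.1, 28.0 and 26.9 CPM with IL4. Within each cytokine replicate 1 was the highest, and the groups overlapped through IL4 replicate 1. The log2 fold change was 1.26 (SE 0.48, edgeR adjusted p = 0.106). Same-numbered IFNG and IL4 libraries deviated together over the 6984 features compared, and with the replicate number as a block Dusp1 passed, at 1.23 (edgeR adjusted p = 0.0407). Without IFNG total replicate 1, the highest library, the log2 fold change was 0.47 (adjusted p = 0.618). It passed without IFNG total replicate 3 (1.54, adjusted p = 0.0339) or without IL4 total replicate 1 (1.88, adjusted p = 0.0272; range over all alternatives 0.0272 to 0.618). On polysomes Dusp1 measured 59.7, 50.0 and 66.9 CPM with IFNG, against 39.9, 27.6 and 31.8 CPM with IL4. These ranges did not overlap, yet the log2 fold change of 0.83 (SE 0.48) did not pass (edgeR adjusted p = 0.288).

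Dusp5 (chr19:53529145-53541809), a nuclear enzyme specific for ERK, had few counts. It passed the filter with 6 of the 12 libraries above its cutoff and none of IL4 total. In total mRNA it measured 1.46, 1.98 and 0.432 CPM with IFNG, against 0.798, 0.306 and 0.0633 CPM with IL4. Polysome levels were 2.29, 0.631 and 4.80 CPM with IFNG, against 1.50, 0.354 and 1.51 CPM with IL4. The groups overlapped in both fractions. Log2 fold changes of 1.71 (95% interval -0.25 to 3.66) in total mRNA and 1.08 (-0.96 to 3.12) on polysomes did not pass, with edgeR adjusted p = 0.326 and 0.531. In a library, 3 counts stood for between 0.184 and 1.13 CPM, and the libraries of a group also differed among themselves. What set the width of these intervals was not tested.

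Of the p38- and JNK-selective enzymes, Dusp10 was called higher with IFNG in both fractions, and Dusp16 was not called in either. Dusp10 (MKP-5, chr1:184034381-184075636) measured 21.8, 35.1 and 27.2 CPM with IFNG, against 4.79, 5.33 and 2.78 CPM with IL4. Its log2 fold change was 2.70 (SE 0.50, edgeR adjusted p = 0.000720), and no alternative ended the call. On polysomes Dusp10 measured 14.3, 60.3 and 33.6 CPM with IFNG, against 6.27, 9.56 and 9.46 CPM with IL4, again without overlap. The log2 fold change there was 2.11 (SE 0.51, edgeR adjusted p = 0.00680). Without IFNG polysome replicate 2, the highest library, it was 1.50 and did not pass (adjusted p = 0.0751; range over all alternatives 0.000812 to 0.0751).

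Dusp16 (MKP-7, chr6:134715468-134807063) measured 18.9, 25.0 and 26.4 CPM in IFNG total mRNA, against 14.7, 5.76 and 7.02 CPM in IL4 total mRNA. The ranges did not overlap, with IL4 replicate 1 closest to the IFNG libraries. The log2 fold change of 1.35 (SE 0.46) missed the threshold (edgeR adjusted p = 0.0643; range over all alternatives 0.0269 to 0.293). It passed with DESeq2 (adjusted p = 0.0449), with limma-voom (0.0309), with no filter (0.0411) and without IL4 total replicate 1 (0.0269). With the replicate block it was 1.46 and passed (edgeR adjusted p = 0.0275), which together with Dusp1 makes 4 members higher with IFNG in total mRNA under the block, against 2 without it. Over all features, 850 were called higher under the block, against 738 without it. On polysomes Dusp16 measured 46.5, 42.5 and 86.4 CPM with IFNG, against 41.3, 16.6 and 25.3 CPM with IL4. That log2 fold change was 1.06 (SE 0.46, edgeR adjusted p = 0.139), although the libraries did not overlap. The block changed no member call on polysomes.

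The cytoplasmic ERK-selective pair did not pass in either fraction. Dusp6 (MKP-3, chr10:99263231-99267489), an ERK-induced feedback phosphatase, measured 57.3, 72.1 and 73.1 CPM in IFNG total mRNA, against 108, 69.2 and 100.2 CPM in IL4 total mRNA. On polysomes Dusp6 measured 51.2, 103 and 118 CPM with IFNG, against 96.3, 159.7 and 222 CPM with IL4. The groups overlapped in both fractions, at log2 fold changes of -0.46 (95% interval -1.32 to 0.41) and -0.81 (-1.68 to 0.06), with edgeR adjusted p = 0.642 and 0.223. Dusp7 (MKP-X, chr9:106368560-106375724) measured 21.7, 29.8 and 16.4 CPM in IFNG total mRNA, against 24.4, 28.4 and 19.4 CPM in IL4 total mRNA. On polysomes Dusp7 measured 20.6, 36.8 and 55.0 CPM with IFNG, against 25.2, 36.5 and 44.3 CPM with IL4. Its log2 fold changes were -0.09 (-0.97 to 0.79) and 0.08 (-0.81 to 0.97), with edgeR adjusted p = 0.951 and 0.933.

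Of the atypical enzymes, Dusp3 (VHR, which acts on ERK and JNK) was lower with IFNG in every library of both fractions without passing the test. It spans chr11:101971141-101987013. In total mRNA Dusp3 measured 151, 129.9 and 133 CPM with IFNG, against 274, 307 and 263 CPM with IL4. On polysomes the values were 124, 101 and 112 CPM with IFNG, against 236, 239 and 174 CPM with IL4. The log2 fold changes were -1.03 (SE 0.37, edgeR adjusted p = 0.0778) and -0.94 (SE 0.37, edgeR adjusted p = 0.0934). DESeq2 called both, with adjusted p = 0.00583 and 0.0182, and a mean of at least 10 CPM as the filter gave a call in total mRNA (0.0336) (range over all alternatives 0.00583 to 0.246 in total mRNA and 0.0182 to 0.249 on polysomes). Dusp22 (JKAP, known as a regulator of JNK signalling, chr13:30660059-30711232) measured 21.6, 17.1 and 15.3 CPM in IFNG total mRNA, against 16.7, 24.9 and 29.7 CPM in IL4 total mRNA. On polysomes Dusp22 measured 24.4, 17.7 and 20.3 CPM with IFNG, against 13.9, 14.2 and 12.1 CPM with IL4. The groups overlapped in total mRNA (log2 fold change -0.40, edgeR adjusted p = 0.676) and were apart on polysomes (0.64, edgeR adjusted p = 0.337), and neither difference passed.

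**Figure D2:**
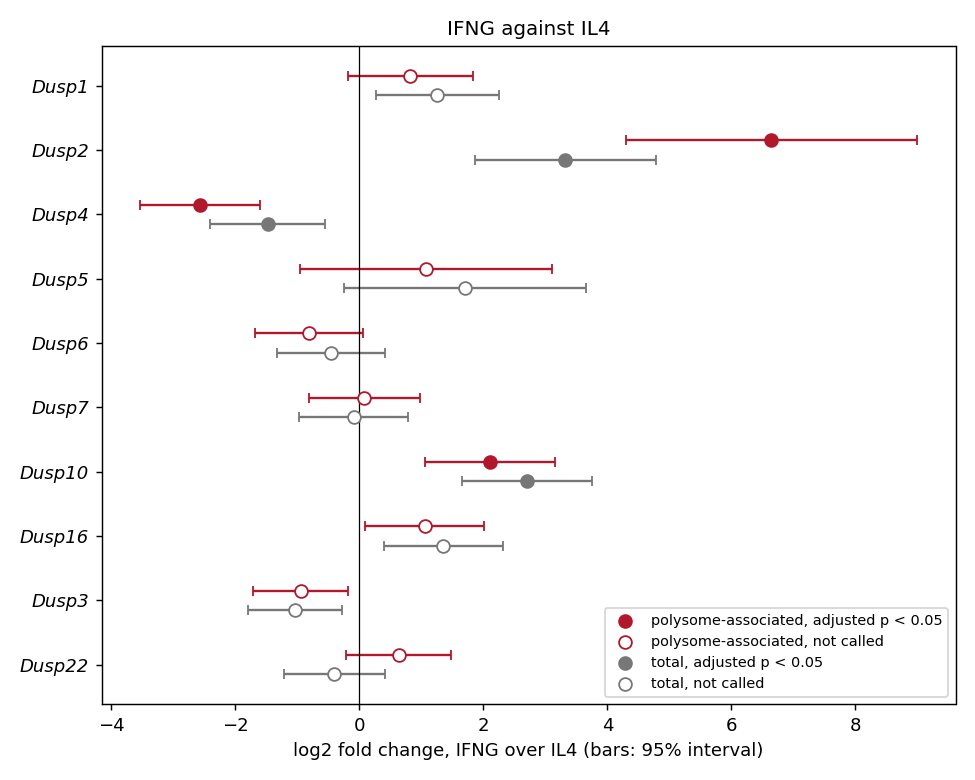
Log2 fold change of IFNG over IL4 for the 10 genes in polysome-associated and total mRNA; points are edgeR estimates and lines are 95% intervals. Dusp2 and Dusp10 lie right of 0 and Dusp4 left of 0 in both fractions, with Dusp2 on polysomes at 6.64 resting on 1 IL4 count.

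Adding up the 10 genes, their summed level was 393 to 553 CPM in IFNG polysome libraries and 622 to 945 CPM in IL4 polysome libraries, without overlap. In total mRNA the sum was 359 to 511 CPM with IFNG and 509 to 592 CPM with IL4. The largest CPM differences between the polysome groups were in Dusp4 (mean 53.2 with IFNG, 314 with IL4) and Dusp3 (113 and 217). The sum thus follows those genes and does not describe the family, whose median log2 fold change on polysomes was 0.73. The sum is not per transcript length, and no test was made on it.

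Polysome-associated mRNA was then set against total mRNA within each cytokine, which asks which messages were richer among those carrying several ribosomes. Dusp16 was higher on polysomes with IFNG, and Dusp4 and Dusp16 were higher and Dusp2 lower with IL4. With IFNG, 1 of 10 members was called higher and 0 lower by edgeR, against 8.93% and 17.0% of all features. With IL4, 2 were called higher and 1 lower, against 13.2% and 15.9% of all features. Library ranges were apart for 2 members higher and 1 lower with IFNG, and for 3 higher and 3 lower with IL4. Over all features those shares were 17.4% and 18.8% with IFNG, and 23.4% and 25.7% with IL4. Median log2 fold changes were 0.39 for the members and 0 over all features with IFNG, and 0.66 and 0.06 with IL4.

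Dusp4 averaged 53.2 ± 11.2 CPM on polysomes and 24.5 ± 11.4 CPM in total mRNA with IFNG, and 314 ± 137 and 68.1 ± 8.22 CPM with IL4 (SD, n = 3 each). The ranges were apart under both cytokines. With IL4 the log2 fold change of polysome over total was 2.20 (SE 0.46, edgeR adjusted p = 0.00259), and it passed under every alternative run (adjusted p 4.77e-05 to 0.0162). With IFNG it was 1.12 (SE 0.45) and missed the threshold (edgeR adjusted p = 0.0680; range over all alternatives 0.0264 to 0.216). It passed with DESeq2 (adjusted p = 0.0471), limma-voom (0.0469), a filter at 10 CPM (0.0264) and without IFNG total replicate 2 (0.0429). It also passed with the replicate block (edgeR adjusted p = 0.0497) and with a block per polarization and number (edgeR adjusted p = 0.0430).

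Dusp16 averaged 58.5 ± 24.3 CPM on polysomes and 23.4 ± 4.00 CPM in total mRNA with IFNG, and 27.8 ± 12.5 and 9.17 ± 4.85 CPM with IL4 (SD, n = 3 each). Its polysome over total log2 fold change was 1.31 with IFNG (SE 0.46, edgeR adjusted p = 0.0400) and 1.61 with IL4 (SE 0.47, edgeR adjusted p = 0.0152). All 3 IFNG polysome libraries exceeded the 3 IFNG total libraries, and so did the 3 IL4 polysome libraries over the IL4 total libraries. The IFNG call was lost with Lars2 left out of the library sizes (adjusted p = 0.0501), with those 2 groups fitted alone (0.0658), and without IFNG polysome replicate 2 or 3 or IFNG total replicate 1 or 2 (adjusted p 0.0547 to 0.169; range over all alternatives 0.0171 to 0.169). The IL4 call was lost without IL4 polysome replicate 1 or without IL4 total replicate 2 or 3 (adjusted p 0.0549 to 0.0939; range over all alternatives 0.00516 to 0.0939).

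Dusp2 averaged 8.86 ± 5.19 CPM on polysomes and 14.7 ± 15.0 CPM in total mRNA with IFNG (SD, n = 3 each), where the log2 fold change of -0.73 did not pass (edgeR adjusted p = 0.422). With IL4 there was 1 count on polysomes against 67 in total mRNA, a ratio of 0.0535 with a 95% counting interval of 0.00134 to 0.309. At the IL4 total level, 18.7 counts would have been drawn from the polysome libraries. The test called the decrease (edgeR adjusted p = 0.0189), but not with limma-voom (adjusted p = 0.0840), nor without any 1 of the IL4 polysome libraries or IL4 total replicate 2 (range over all alternatives 0.00320 to 0.0840).

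The other members did not pass in either cytokine. Dusp3 was lower on polysomes in every library under both cytokines, at log2 fold changes of -0.29 with IFNG and -0.38 with IL4 (edgeR adjusted p = 0.584 and 0.446). Dusp10 measured 8.43 ± 1.87 CPM on polysomes and 4.30 ± 1.34 CPM in total mRNA with IL4, with ranges apart (log2 fold change 0.95, edgeR adjusted p = 0.153), and its IFNG ranges overlapped. Dusp6 averaged 90.9 ± 35.2 CPM on polysomes and 67.5 ± 8.89 CPM in total mRNA with IFNG, and 159 ± 63.0 CPM on polysomes and 92.6 ± 20.7 CPM in total mRNA with IL4. Dusp7 averaged 37.5 ± 17.2 CPM on polysomes and 22.6 ± 6.73 CPM in total mRNA with IFNG, and 35.3 ± 9.58 CPM and 24.1 ± 4.55 CPM with IL4. For Dusp1 the means were 58.9 ± 8.45 CPM on polysomes and 101 ± 70.7 CPM in total mRNA with IFNG, and 33.1 ± 6.26 CPM and 42.3 ± 25.8 CPM with IL4. Polysome and total ranges of Dusp5, Dusp6, Dusp7 and Dusp1 overlapped (SD, n = 3 each). Dusp22 averaged 20.8 ± 3.40 CPM on polysomes and 18.0 ± 3.26 CPM in total mRNA with IFNG, and 13.4 ± 1.12 and 23.8 ± 6.60 CPM with IL4, where the ranges were apart (log2 fold change -0.83, edgeR adjusted p = 0.123).

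**Figure D3:**
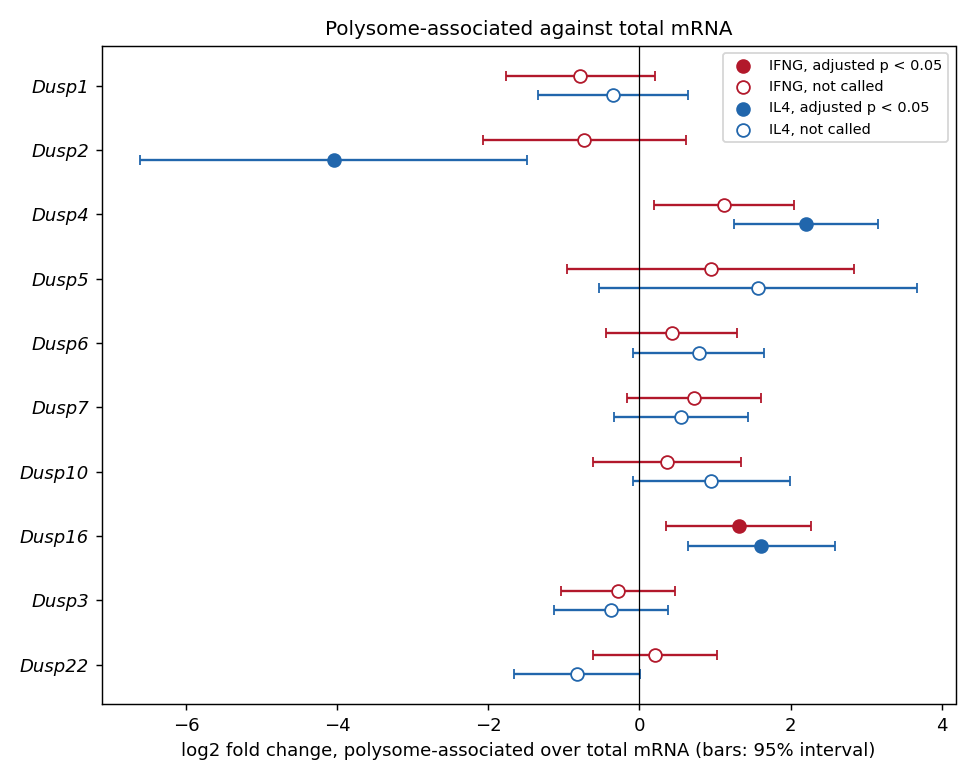
Log2 fold change of polysome-associated over total mRNA for the 10 genes with IFNG and with IL4; points are edgeR estimates and lines are 95% intervals. Dusp4 and Dusp16 lie right of 0 under both cytokines, Dusp4 at 1.12 with IFNG and 2.20 with IL4, and Dusp2 lies at -4.05 with IL4, where it rests on 1 count.

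Whether the IFNG to IL4 difference on polysomes departed from that in total mRNA was tested as an interaction. No member passed, and of all features edgeR called 0%, with 176 of 10421 at an unadjusted p under 0.05. In simulated counts this test recovered 0 of 50 features changed 2-fold, 6 of 50 changed 4-fold and 32 of 50 changed 8-fold. A lack of calls here therefore does not show that the fractions differed alike. Dusp2 was the member at an unadjusted p under 0.05, with a log2 difference of 3.32 (95% interval 0.29 to 6.34, unadjusted p = 0.0330), and it rests on the 1 IL4 polysome count. Dusp4 differed by -1.08 (-2.38 to 0.21, unadjusted p = 0.0967) and Dusp22 by 1.04 (-0.13 to 2.21, unadjusted p = 0.0799). The remaining members lay between -0.63 (Dusp5) and 0.17 (Dusp7). All 10 adjusted p-values were 1.00. DESeq2 called 1 feature lower, and fitting without the filter called 1 higher and 4 lower over all features.

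Other genes of the MAP kinase pathway were counted from 7 lists of 113 names, of which 90 were tested. In total mRNA edgeR called 7 higher with IFNG and 1 lower, and on polysomes 5 higher and 2 lower. Over all features the shares higher and lower were 7.08% and 3.93% in total mRNA and 7.54% and 6.58% on polysomes, so these counts are near or below those shares. None passed the interaction. The median log2 fold change of the 90 was 0.20 in total mRNA and 0.29 on polysomes. No MAP2 kinase of 6 and none of 9 other phosphatases of MAP kinases passed in either fraction.

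The list with most calls was that of 17 feedback inhibitors and ERK-induced genes, where 3 were higher and 1 lower in total mRNA, and 2 higher and 1 lower on polysomes. The zinc finger factors Egr1 to Egr3, made soon after ERK is activated, did not move together. Egr2 averaged 10.0 ± 3.40 CPM in IFNG total mRNA and 67.9 ± 49.5 CPM in IL4 total mRNA (log2 fold change -2.76, edgeR adjusted p = 0.00244). On polysomes Egr2 averaged 21.8 ± 9.67 CPM with IFNG and 182 ± 147 CPM with IL4 (-3.06, edgeR adjusted p = 0.00111). Egr3 had 280 counts in IFNG total mRNA and 1 in IL4 total mRNA, a ratio of 358 with a 95% counting interval of 63.7 to 14176. Egr1 averaged 20.7 ± 4.33 CPM with IFNG and 4.50 ± 3.13 CPM with IL4 in total mRNA (2.20, edgeR adjusted p = 0.0171). It was not called on polysomes. Spred1 is an inhibitor of the step from Ras to Raf. On polysomes Spred1 averaged 71.2 ± 8.16 CPM with IFNG and 14.9 ± 10.7 CPM with IL4 (2.22, edgeR adjusted p = 0.00373). In total mRNA Spred1 was not called. Phlda1, named after its value was seen, was also higher with IFNG than with IL4 in total mRNA (1.73, edgeR adjusted p = 0.0201). On polysomes Phlda1 was not called.

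Among the kinases, 1 of 10 MAP kinases, 2 of 23 MAP3 kinases, RAF kinases and scaffolds and 0 of 10 MAP kinase-activated kinases were called in total mRNA, all higher with IFNG. Mapk13, the p38 delta kinase, had 190 counts in IFNG total mRNA and 2 in IL4 total mRNA, a ratio of 121 with a 95% counting interval of 33.1 to 1009. Map3k14, the NF-kB-inducing kinase, averaged 20.6 ± 11.8 CPM with IFNG, against 6.45 ± 1.09 CPM with IL4 (log2 fold change 1.67, edgeR adjusted p = 0.0390). On polysomes neither Mapk13 nor Map3k14 was called (edgeR adjusted p = 0.146 and 0.143). Taok3 was higher with IFNG than with IL4 in both fractions, averaging 330 ± 115 CPM with IFNG and 129 ± 25.7 CPM with IL4 on polysomes (1.35, edgeR adjusted p = 0.0288). Rps6ka4, the chromatin kinase MSK2, passed on polysomes at 93.7 ± 6.32 CPM with IFNG and 34.3 ± 5.39 CPM with IL4 (1.45, edgeR adjusted p = 0.0337). Of 15 other dual-specificity phosphatases tested, Dusp28 passed, higher with IFNG in both fractions (1.70 in total mRNA, edgeR adjusted p = 0.0277). Its polysome libraries held 80 counts with IFNG and 3 with IL4, a ratio of 18.2 with a 95% counting interval of 5.99 to 89.9. Ksr2, a scaffold named after its value was seen, had 0 counts in IFNG polysome libraries and 24 in IL4 polysome libraries. Set at 3 counts over the IFNG group, it would be 11.8-fold lower with IFNG. That value leaves out the spread of the IL4 polysome libraries (1.38 ± 1.36 CPM). The edgeR log2 fold change was -6.85 (SE 2.05, edgeR adjusted p = 0.0289).

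Between fractions, 8 of the 90 pathway genes were higher and 12 lower on polysomes with IFNG, and 10 were higher and 8 lower with IL4. Over all features the shares higher and lower were 8.93% and 17.0% with IFNG and 13.2% and 15.9% with IL4, so the pathway counts are near or below those shares. The MAP3 kinases Map3k1 and Map3k5, upstream of JNK and p38, were higher on polysomes under both cytokines. Map3k5 averaged 46.3 ± 23.8 CPM on polysomes and 8.23 ± 0.919 CPM in total mRNA with IL4 (log2 fold change 2.50, edgeR adjusted p = 0.00130). Map3k1 averaged 81.5 ± 25.4 CPM on polysomes and 17.7 ± 9.43 CPM in total mRNA with IFNG (2.21, edgeR adjusted p = 0.00165). Map2k3, which activates p38, was lower on polysomes under both (-1.16, edgeR adjusted p = 0.0447, and -1.56, edgeR adjusted p = 0.0103). Dusp28 was lower on polysomes as well (-3.61 with IFNG, edgeR adjusted p = 0.000253), with 3 counts on polysomes against 615 in total mRNA with IL4.

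**Figure D4:**
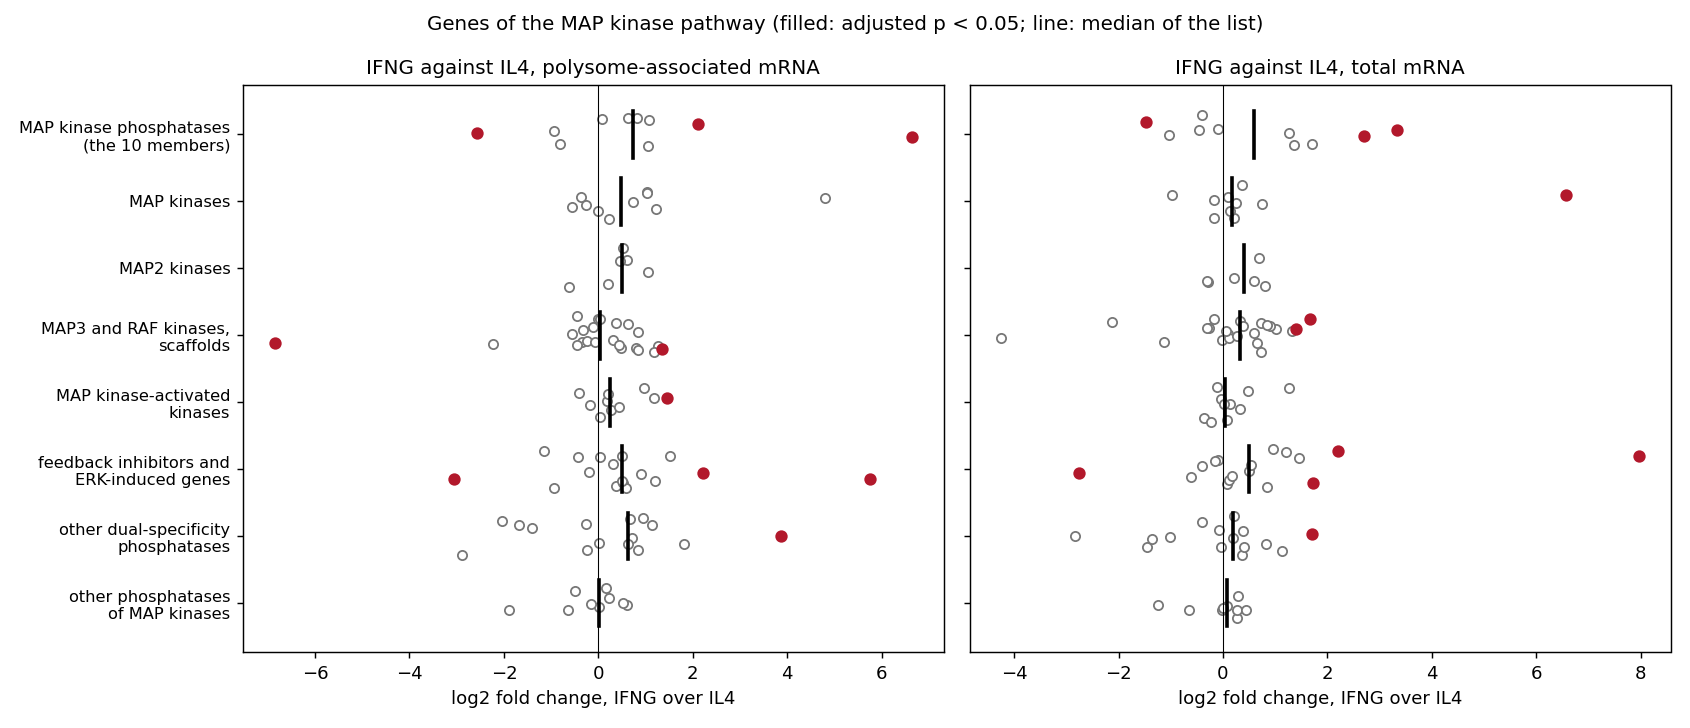
Log2 fold change of IFNG over IL4 for each tested gene of the 10 phosphatases and of the 7 pathway lists, on polysomes (left) and in total mRNA (right), where filled points passed the edgeR test and lines are list medians. Among the feedback genes, Egr3 lies far right and Egr2 left of 0 in both panels, and the MAP2 kinases and other phosphatases of MAP kinases have no filled point.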

How the data were processed

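Libraries were grouped by the polarization, RNA source and replicate number in their labels, 4 groups of 3. The authors deposited 1 whole-number read count per gene symbol for each library, not normalized, per the file headers and the values, and a log2 column that differed from log2 CPM computed here by at most 0.0186 for the members. HISAT2, HISAT, limma and mm10 are named per the submitters' processing notes, while counter, strand setting and annotation were not given in the sources used. No annotated gene in the files overlaps a member. Whether a replicate was another mouse or another culture is not in the labels. The p-values therefore reflect variation among these libraries only, part or all of which may be technical.

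Tests on the deposited counts used edgeR 4.0.16 under R 4.3.3: filterByExpr over the 4 groups (10421 features left, a cutoff of 1.04 CPM), TMM, and 1 robust quasi-likelihood fit of the 12 libraries with no covariates. Adjusted p-values are Benjamini-Hochberg values over all tested features, with a threshold of 0.05. The script was tested on simulated data. Where a group held 1 to 3 counts, ratios have exact 95% intervals that cover counting error only. Alternatives were DESeq2 1.42.0, limma-voom (limma 3.58.1), other scalings and filters, thinning, replicate blocks and leaving out each library.

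The members, lists and motifs were chosen with earlier results of these data known. All 10 members were named. From each list, up to 3 called genes with the largest fold change and a mean of at least 5 CPM in 1 group were named, and other genes are said to be named after their values were seen. Same-numbered IFNG and IL4 libraries deviated together over 6984 features. Correlations of deviations from group means were 0.522, 0.150 and 0.748 in total mRNA and 0.257, 0.158 and 0.362 on polysomes. The numbers were therefore taken to pair them, from the data and not the labels. Libraries of different numbers were not correlated, so whether another pairing would match as well was not tested. Levels were not ordered between genes, since no transcript length was used here. Positions and promoters are from RefSeq, GRCm38.p6. A few items among the lists and motifs are not reported here.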

Additional observations from a re-analysis of the deposited data

Results flagged for a closer look

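Dusp22 was picked out because its polysome minus total differences, taken between libraries of the same number, were above 0 with IFNG (0.17, 0.05 and 0.40 on the log2(CPM + 0.5) scale) and below 0 with IL4 (-0.25, -0.80 and -1.26). Same-numbered polysome and total libraries did not all deviate together, so this matching rests on the numbers alone. Taken without it, the IFNG polysome and total libraries overlapped and the IL4 ones did not. The difference itself was tested without pairing, as an interaction in edgeR, and was 1.04 on the log2 scale (SE 0.57, unadjusted p = 0.0799), which did not pass over all features (adjusted p = 1.00).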

How the results depend on the processing

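The 10 genes and 5 comparisons gave 823 alternative values, of which 771 kept their direction and side of the threshold, 21 lost a call, 17 gained one and 14 reversed. Causes were not tested. The 2 alternatives planned for an order of levels between genes were not run. A mean of at least 10 CPM as the filter removes Dusp2 and Dusp5, which had few counts. Thinning the libraries to the smallest total changed no call of Dusp2. What further part depth had in the values of these genes was not tested.

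Reversals were in members that did not pass. Dusp7 was at -0.017 on polysomes with limma-voom, and between -0.22 and 0.38 there, -0.40 and 0.052 in total mRNA and -0.078 and 0.59 in the interaction on leaving out each library. Leaving out libraries gave interactions of -1.06 to 0.45 for Dusp1, -0.048 to 0.30 for Dusp3 and -0.81 to 0.12 for Dusp16. Polysome over total mRNA then ranged with IFNG from -1.05 to 0.020 for Dusp1, -1.33 to 0.62 for Dusp2 and -0.25 to 0.75 for Dusp10, and with IL4 from -0.59 to 0.27 for Dusp1.

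Dusp2 and Dusp5 were not tested at 10 CPM, so all counts of members at 10 CPM below leave them out. Dusp5 also failed the filter in further alternatives. It had values in 13 of 15 in total mRNA, 12 of 15 on polysomes and 20 of 22 in the interaction. For polysome over total it had values in 14 of 16 with IFNG and 13 of 16 with IL4. For IFNG against IL4 in total mRNA, members called higher numbered 1 at 10 CPM and members lower 2 with DESeq2 or at 10 CPM. Pathway genes higher numbered 4 at 10 CPM or with thinned libraries, and lower 2 with DESeq2, limma-voom or at 10 CPM. On polysomes, members higher numbered 1 at 10 CPM, members lower 2 with DESeq2, and pathway genes lower 5 with DESeq2 and 1 with limma-voom, at 10 CPM or with the 2 groups alone. In the interaction, no filter called 1 feature higher and 4 lower, and DESeq2 1 lower. For polysome over total with IFNG, members higher numbered 2 with DESeq2, limma-voom or at 10 CPM and 0 with Lars2 left out or the 2 groups alone. Pathway genes higher numbered 13 with DESeq2 or at 10 CPM, 3 without Lars2 and 2 with the 2 groups alone, which called 483 features higher, and lower 7 at 10 CPM or thinned. With IL4, members lower numbered 0 with limma-voom or at 10 CPM. Pathway genes higher numbered 6 without Lars2 and 17 with the 2 groups alone, and lower 14 with DESeq2, 15 without Lars2 and 17 with the 2 groups alone.

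With the replicate block, members higher with IFNG in total mRNA numbered 4 and pathway genes lower 3, and it changed no other member call between the cytokines. Over all features it called 850 higher and 584 lower there, against 738 and 410 without it. Polysome and total libraries of the same number did not all deviate together (correlations 0.266, 0.437 and -0.0787 with IFNG, and 0.0122, 0.403 and 0.0442 with IL4), so there the numbers are only numbers. With the block, polysome over total with IFNG gave 2 members and 14 pathway genes higher, and with IL4 13 pathway genes lower. A block per polarization and number gave 2 members and 15 pathway genes higher with IFNG. Over all features these 2 blocks called 1169 and 1085 higher with IFNG, against 931 without a block.

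Leaving out each library in turn gave, in total mRNA, 1 to 4 members higher and 0 to 1 lower, 2 to 9 pathway genes higher and 1 to 3 lower, and 237 to 469 features lower. On polysomes it gave 1 to 2 members higher, 3 to 9 pathway genes higher and 1 to 2 lower, and 496 to 814 features higher and 351 to 960 lower. Polysome over total with IFNG then gave 0 to 1 members higher, 2 to 14 pathway genes higher and 3 to 11 lower, and 297 to 1201 features higher and 935 to 2014 lower. With IL4 it gave 1 to 2 members higher and 0 to 1 lower, 3 to 7 pathway genes higher and 2 to 6 lower, and 515 to 1034 features higher and 1004 to 1542 lower.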

Other observations

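Dusp8 and Dusp9 encode further classical MAP kinase phosphatases, and belong to the list of other dual-specificity phosphatases. Both were named here after their values were seen. Dusp8, which acts on JNK and p38, measured 4.23, 4.41 and 9.23 CPM in IFNG polysome libraries, against 4.09, 2.12 and 3.40 CPM in IL4 polysome libraries. In total mRNA Dusp8 measured 7.93, 5.70 and 1.04 CPM with IFNG, against 4.50, 1.84 and 0.380 CPM with IL4. The IFNG polysome libraries lay above the IL4 ones, the total libraries overlapped, and neither log2 fold change passed (0.83 on polysomes, edgeR adjusted p = 0.550, and 1.13 in total mRNA, edgeR adjusted p = 0.446). Dusp9, an ERK-selective cytoplasmic enzyme, had few counts. It measured 0.352, 0.210 and 0 CPM in IFNG polysome libraries, against 1.63, 1.42 and 2.65 CPM in IL4 polysome libraries. In total mRNA Dusp9 measured 1.01, 0.814 and 0.0864 CPM with IFNG, against 2.25, 1.29 and 1.52 CPM with IL4. All IFNG libraries of Dusp9 lay below the IL4 libraries of the same fraction, with log2 fold changes of -2.89 on polysomes (edgeR adjusted p = 0.0728) and -1.37 in total mRNA (edgeR adjusted p = 0.400) that did not pass.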
